A study of Bos taurus with 14 samples.

Results

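OTX2, ZIC2, ZIC5, SALL2 and POU3F1 are transcription factors that mark the primed epiblast, the pluripotent layer of the embryo shortly before the germ layers form. They were followed across bovine embryonic stem cells (bESC), whole blastocysts and skin fibroblasts. They were picked out of the files by gene symbol, from a list drawn up with earlier results of these data known. All 5 were found among 23159 features in the files of the earliest passage and of the controls. In the files of the later passages 4 were found among 24616 features. SALL2 at those later passages was not analysed here.

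Pluripotent cells occupy a naive state, typical of the early inner cell mass, or a primed state, typical of the epiblast after implantation. In mouse cells OTX2, a homeodomain protein of the orthodenticle family, accompanies POU5F1 to new enhancers as cells leave the naive state, and POU3F1, a POU-domain protein also called OCT6, comes on in the same transition. ZIC2 and ZIC5 are zinc finger proteins of a family named after the cerebellum, and SALL2 is a spalt-type zinc finger protein. All 5 are also used later in the nervous system, so that a high level alone does not tell a primed epiblast cell from an early neural one.

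The stem cells belonged to 2 lines, A and B, derived from blastocysts and kept on mouse embryonic fibroblast feeders. Their medium, CTFR, combined a base free of growth factors with FGF2 and IWR1, an inhibitor of the WNT pathway. RNA came from line A at P10, P13, P23, P35 and P45 and from line B at P10, P12, P24, P35 and P46 (P, passage number), in 1 library per passage. Each line is a single culture sampled repeatedly, so p-values over later passages describe how passages of it scatter and say nothing of independent derivations. The references were 2 pools of 10 whole in vivo blastocysts, labelled A and B, and fibroblast lines A and B from skin. With 2 libraries per group at P10 and in the references, p-values there measure the spread between those few samples. No genetic change was listed for any group, and nothing says that the letters tie a stem cell line to a blastocyst pool or a fibroblast line.

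Values are RPKM, reads divided by gene length and by the mapped reads of the library, so levels can be set beside each other between genes. Files of P10 and the controls form one set, and those of later passages another with its own feature list, so tests stay within a set. With fibroblast line A as 1, relative depth was 1.0 to 1.559 among the P10 and control libraries. With line A at P13 as 1, it was 0.710 to 1.027 among the later ones. In the blastocyst libraries 2 features took 65.8% and 64.0% of all RPKM, against 2.08% to 3.36% for the 2 most abundant features of any other library. Which reads enter the total behind the RPKM is not stated. The median gene stood 1.43 log2 units higher in P10 stem cells than in blastocysts and 0.23 higher than in fibroblasts. Changes are therefore also given relative to the median gene.

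POU5F1, CDX2 and the summed fibroblast markers differed between the groups in the direction of the labels, while some other listed markers did not. POU5F1, the central pluripotency factor, was at 223 and 151 RPKM in stem cells of lines A and B at P10, at 48.6 and 38.2 RPKM in blastocysts, and listed at 0 in both fibroblast lines. NANOG, also a pluripotency marker, overlapped, at 4.49 and 2.15 RPKM at P10 and 0.549 and 4.57 RPKM in blastocysts. CDX2, which defines the trophectoderm, was listed at 0 in all stem cell and fibroblast libraries and stood at 13.8 and 15.9 RPKM in blastocysts. TFAP2A, on the same marker list, was at 0.228 and 0.425 RPKM in blastocysts and 12.0 and 21.3 RPKM in fibroblasts. ELF5, also on it, reached at most 0.039 RPKM in blastocysts. The 9 fibroblast markers summed to 661 and 1012 RPKM at P10, with none at 0. Blastocysts had sums of 2.68 and 3.28 RPKM, and fibroblasts 11895 and 12760 RPKM. Most of each P10 sum came from VIM alone (553 and 796 RPKM). LUM came next (53.4 and 81.2 RPKM), while FAP did not exceed 0.128 RPKM at P10. In the bovine skin fibroblasts the 5 factors together summed to no more than 1.49 RPKM. The mouse feeders are other cells, and whether their RNA entered the stem cell libraries was not tested.

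At P10 the 5 factors ranked as OTX2, SALL2 and ZIC2 on one level, then ZIC5, then POU3F1. SALL2 averaged 133 ± 18.9 RPKM, OTX2 130 ± 13.0 RPKM and ZIC2 127 ± 0.636 RPKM (SD, n = 2 lines), differences smaller than the spread of SALL2 and OTX2 between lines. ZIC5 followed at 40.3 ± 1.22 RPKM and POU3F1 at 17.6 ± 0.415 RPKM (SD, n = 2), both apart from their neighbours in that order in each line. The leading 3 stood between places 325 and 432 of 23159 features, within the top 1.4% to 1.87%, and POU3F1 between places 3543 and 3596.

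**Figure D1:**
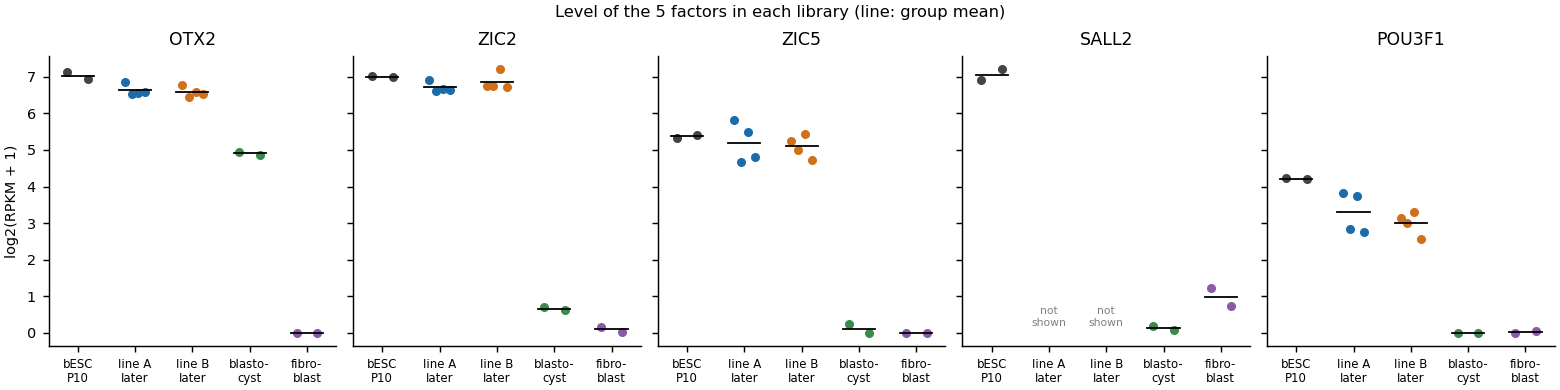
Level of each factor in every library, as log2(RPKM + 1), for P10 stem cells, later passages of lines A and B, blastocysts and fibroblasts. Points are libraries and horizontal lines group means. The stem cell points lie above both controls in each panel, and OTX2 alone has blastocyst points (28.2 and 30.0 RPKM) well above 0.

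OTX2 was the one factor of the 5 with a clear level in whole blastocysts. It was at 139 RPKM in line A and 121 RPKM in line B at P10, against 30.0 and 28.2 RPKM in blastocyst pools A and B. Both fibroblast lines listed it at 0. The 3 groups did not overlap, and the pools differed less from each other than from either stem cell line. The ratio of the means was 4.46 for P10 over blastocysts. On the log2(RPKM + 1) scale the difference was 2.12 ± 0.17 (SE), or 0.69 above the median gene, with an adjusted p of 5.3e-05 (limma, Benjamini-Hochberg over all genes).

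How far OTX2 stood above the blastocyst level depended on the scaling between libraries. The difference was 0.86 (adjusted p = 0.00508, limma) after quantile normalization and 0.76 (adjusted p = 0.0103, limma) without the 2 most abundant features. It was 0.34 (adjusted p = 0.123, limma) with median-of-ratios scaling, where the call was lost. In parts per 1000000 of the RPKM summed over 18435 names that both sets share, with the most abundant features left out, OTX2 was at 516 and 432 at P10, against 297 and 280 in blastocysts. On that scale the later passages ranged from 272 to 372, a range that includes both blastocyst values, although this is a comparison across separately made sets and was not tested. A whole blastocyst is mostly trophectoderm, and in such bulk samples fewer cells of a type and less RNA per cell cannot be told apart.

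Within its family OTX2 was nearly alone. It made up 98.5% of the summed RPKM of OTX1, OTX2 and CRX in both P10 lines, 95.3% to 97.9% in the later passages, and 99.7% and 99.8% in blastocysts. CRX, a photoreceptor relative, was at 2.17 RPKM in line A and 1.85 RPKM in line B at P10 and listed at 0 in all 4 control libraries. OTX1 reached at most 0.267 RPKM in any library of the series.

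The zinc finger genes ZIC2 and ZIC5 were close to absent from both references. ZIC2 was at 128 RPKM in line A and 127 RPKM in line B at P10, against 0.623 and 0.555 RPKM in blastocysts A and B and 0.128 and 0.018 RPKM in fibroblasts A and B. The ratio of means over blastocysts was 216, and the difference on the log2(RPKM + 1) scale was 6.34 ± 0.19 (SE), 4.91 above the median gene (adjusted p = 5.69e-06, limma). Over fibroblasts the difference was 6.90 ± 0.19 (SE), 6.67 above the median gene (adjusted p = 1.59e-05, limma). No stem cell library came near a control library, and the lines agreed more closely for ZIC2 at P10 than for any of the other 4 factors. ZIC2 passed the filter for testing (1 RPKM in 2 or more libraries) only through P10, where it was high. The same held for ZIC5, SALL2, POU3F1, ZIC1 and SALL1. Their direction was largely set by that filter, so each adjusted p given for these genes is a description.

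ZIC5 was lower throughout. It was at 39.5 RPKM in line A and 41.2 RPKM in line B at P10, against 0.174 RPKM in blastocyst pool A and 0 in pool B, and it was listed at 0 in both fibroblast lines. Its difference from blastocysts was 5.25 ± 0.19 (SE), 3.83 above the median gene (adjusted p = 8.32e-06, limma). Against fibroblasts the call had an adjusted p of 1.87e-05 (limma), with no fold because both references were listed at 0.

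Of the other ZIC genes, ZIC1, a cerebellar and dorsal neural factor, was at 5.12 and 8.97 RPKM at P10, against 0.078 and 0.038 RPKM in blastocysts (2.88 ± 0.25, SE; adjusted p = 6.57e-05, limma). ZIC4 was at 0.505 and 1.47 RPKM at P10 and listed at 0 in both blastocyst pools. ZIC2 supplied 73.9% and 71.1% of the summed RPKM of ZIC1, ZIC2, ZIC4 and ZIC5 in P10 lines A and B, against 71.2% and 93.6% in blastocysts A and B, while the sum itself was 173 and 179 RPKM at P10 and 0.875 and 0.593 RPKM in blastocysts. These 4 genes thus differed in level, with ZIC2 the largest in each of these libraries.

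**Figure D2:**
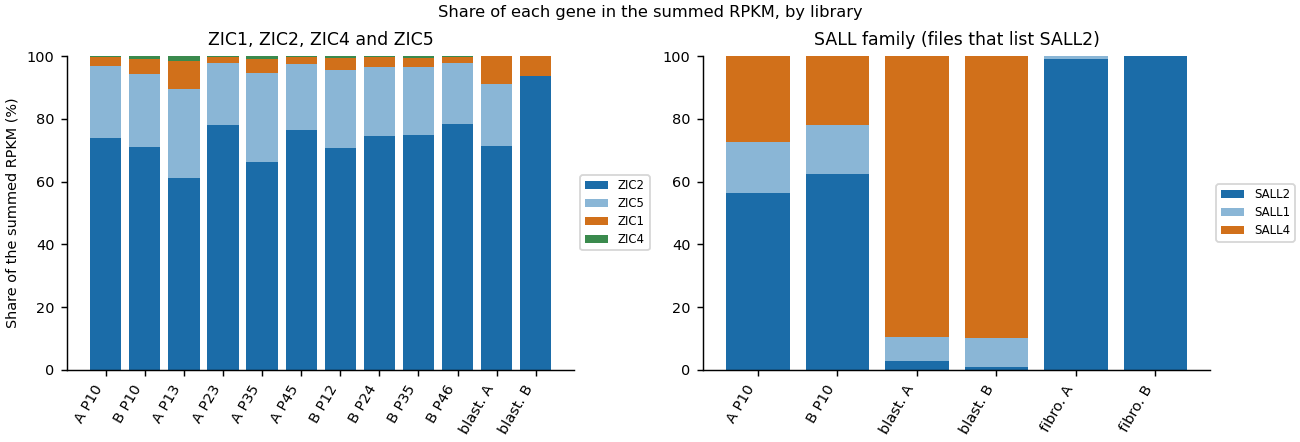
Share of each gene in a summed RPKM (bar heights in percent, from 0 to 100), by library, for ZIC1, ZIC2, ZIC4 and ZIC5 in stem cells and blastocysts and for SALL genes in the files that list SALL2. ZIC2 takes 61.1% to 78.4% of the sum of the 4 ZIC genes in stem cell libraries, and SALL4 takes 89.6% and 89.7% of the SALL sum in blastocysts.

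SALL2 was the factor with the largest fitted difference from blastocysts. It was at 120 RPKM in line A and 146 RPKM in line B at P10, against 0.141 and 0.055 RPKM in blastocysts and 1.36 and 0.669 RPKM in fibroblasts A and B. Neither reference overlapped with the stem cells, and among the 5 factors it alone reached 1 RPKM in a fibroblast library. The ratio of means was 1358 over blastocysts and 131 over fibroblasts. The differences were 6.93 ± 0.24 (SE), 5.50 above the median gene (adjusted p = 7.54e-06, limma), over blastocysts, and 6.07 ± 0.24 (SE), 5.84 above the median gene (adjusted p = 2.32e-05, limma), over fibroblasts.

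The SALL relatives changed places between embryo and culture. SALL4, a pluripotency factor that partners with POU5F1, was at 58.2 RPKM in line A and 51.5 RPKM in line B at P10, against 4.42 and 4.77 RPKM in blastocysts (3.32 ± 0.19, SE; adjusted p = 1.78e-05, limma), and listed at 0 in fibroblasts. SALL1 was at 34.8 and 37.2 RPKM at P10, against 0.371 and 0.491 RPKM in blastocysts (4.69 ± 0.19, SE; adjusted p = 9.48e-06, limma). SALL2 therefore made up 56.3% and 62.3% of the sum of SALL1, SALL2 and SALL4 at P10, against 2.86% and 1.03% in blastocysts, where SALL4 made up 89.6% and 89.7%. In fibroblasts SALL2 made up 99.0% (line A) and all (line B) of a sum that was no more than 1.37 RPKM.

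POU3F1 was the least abundant of the 5. It was at 17.9 RPKM in line A and 17.3 RPKM in line B at P10, and listed at 0 in both blastocyst pools and in fibroblast line A. Fibroblast line B was at 0.041 RPKM. The difference from fibroblasts was 4.19 ± 0.17 (SE), 3.96 above the median gene (adjusted p = 2.32e-05, limma), and the call against blastocysts had an adjusted p of 9.48e-06 (limma), without a fold. POU3F1 supplied 98.7% and 99.6% of the summed RPKM of POU3F1, POU3F2 and POU3F4 at P10. Neither relative exceeded 0.332 RPKM in any library.

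Counted together, 5 of 5 factors were called higher in P10 stem cells than in blastocysts, where 73.0% of 11761 genes tested were called higher and 7.33% lower. Against fibroblasts 5 of 5 were also called higher, where 35.4% of genes were called higher and 21.9% lower. The comparisons share the P10 libraries. Genes were tested if they reached 1 RPKM in 2 or more libraries. ZIC2, ZIC5, SALL2 and POU3F1 did so only through P10, as did 1317 of the 11761 genes. Their direction was largely set by that filter, so the counts and the adjusted p of these factors are descriptions. The median of the 5 differences was 3.83 above the median gene against blastocysts and 5.84 above it against fibroblasts. Most of these factors were at or near 0 in the references, so the sizes depend on pseudocount and scaling. Over the alternatives, and not set against the median gene, ZIC5 differed from blastocysts by 4.33 to 7.93 and SALL2 by 5.81 to 9.42. OTX2 differed from fibroblasts by 6.32 to 10.3. OTX2 against blastocysts was the difference nearest to the median gene.

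The balance of calls over all genes moved with the scaling. Against blastocysts 8583 genes were higher and 862 lower as deposited, 5236 and 2643 without the 2 most abundant features, 4050 and 3495 with median-of-ratios scaling, and 3508 and 3546 after quantile normalization. Against fibroblasts the counts were 4160 higher and 2576 lower as deposited, 4567 and 1951 without the 2 most abundant features, and 3021 and 2908 with median-of-ratios scaling. All 5 factors were called higher under each of these settings in both comparisons, except OTX2 against blastocysts with median-of-ratios scaling.

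**Figure D3:**
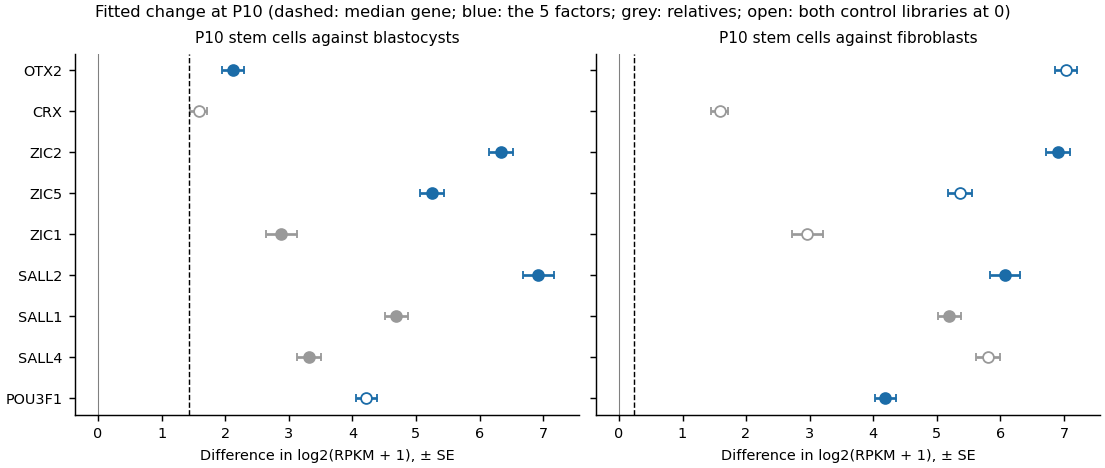
Fitted difference of P10 stem cells from blastocysts (left) and from fibroblasts (right) in log2(RPKM + 1), with standard errors, for the 5 factors (blue) and relatives (grey). The dashed line is the median gene (1.43 left, 0.23 right), and open points have both control libraries at 0, so their position depends on the pseudocount of 1. OTX2 against blastocysts, at 2.12, lies nearest to the dashed line among the 5 factors.

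Of 10 relatives examined, 4 passed the filter (CRX, ZIC1, SALL1 and SALL4), and all 4 were called higher at P10 in each comparison, under each scaling tried. Of all genes as deposited, 73.0% were called higher against blastocysts and 35.4% against fibroblasts. CRX, ZIC1 and SALL1 passed only through the P10 libraries, so that their direction was largely set by the filter. The median fitted difference of the 4 was 1.67 above the median gene against blastocysts and 3.85 against fibroblasts, where CRX, ZIC1 and SALL4 were listed at 0 and their fitted values depend on the pseudocount. SALL3 and POU3F3 were not analysed here.

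Of a wider list of 21 primed epiblast genes, 13 were tested. Against blastocysts 11 were called higher and 1 lower, where 73.0% of all genes were called higher, with a median of 2.23 above the median gene. HMGA2, a chromatin protein, was at 84.8 and 92.3 RPKM at P10 and listed at 0 in both blastocyst pools. CDH2, the mesenchymal cadherin, was at 132 and 105 RPKM at P10, against 0.23 and 0.673 RPKM in blastocysts. ETV5, an FGF-responsive factor, and UTF1, a chromatin factor of pluripotent cells, were also called (3.39 and 1.46 above the median gene). UTF1 and LIN28B, also called higher, passed the filter only through P10, so their direction in both comparisons was largely set by it. The gene called lower as deposited was CLDN6, a tight junction protein, at 57.1 and 58.2 RPKM at P10, against 103 and 129 RPKM in blastocysts. Under each of the 3 other scalings 9 were called higher and 2 lower. DNMT3B, a de novo DNA methyltransferase, lost its call under all 3 (log2 differences of 0.40, -0.06 and 0.35), as did THY1, a cell surface glycoprotein (-0.65, 0.20 and 0.45, after quantile normalization, with median-of-ratios scaling and without the 2 most abundant features). DNMT3A, the related methyltransferase, was called lower under all 3.

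Against fibroblasts 11 of those 13 genes were called higher and 1 lower, where 35.4% of all genes were called higher and 21.9% lower. The median was 3.58 above the median gene. HMGA2, CLDN6, DNMT3B and PODXL, a sialomucin of the pluripotent cell surface, had the smallest adjusted p, and their differences lay between 5.20 and 6.14 above the median gene. THY1, which is also on the fibroblast list, was called lower, at 0.89 and 2.62 RPKM at P10 against 297 and 241 RPKM in fibroblasts. It passed the filter only through the fibroblasts, which largely set its direction.

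Genes listed for the naive state took the opposite direction to the 5 factors when P10 was compared with whole blastocysts. A whole blastocyst is mostly trophectoderm, and which of its cells held these transcripts was not tested. All 8 tested of a list of 10 were called lower at P10, where 7.33% of all genes were, and were so under each scaling tried. Of these, DPPA3, ESRRB, NR5A2, TFCP2L1 and ZFP42 passed the filter only through the blastocysts, which largely set their direction. The 8 had a median of -4.93 relative to the median gene. ZFP42, a marker of naive mouse cells, was at 0.048 and 0.155 RPKM at P10, against 185 and 294 RPKM in blastocysts. DPPA3 was listed at 0 at P10, against 34.6 and 32.3 RPKM in blastocysts. ESRRB, a nuclear receptor, was at 0.077 and 0.309 RPKM at P10, against 9.54 and 8.78 RPKM, and TBX3 at 0.037 and 0.265 RPKM, against 22.9 and 20.6 RPKM. Against fibroblasts 2 of the 8 were called, both lower, where 21.9% of all genes were called lower. KLF4 was at 1.44 and 3.05 RPKM at P10 against 57.9 and 41.9 RPKM in fibroblasts, where TBX3 was at 2.93 and 5.11 RPKM. In the separately made later files KLF4 was at 8.43 to 16.2 RPKM and ESRRB at 0.359 to 1.90 RPKM, above their P10 values. ZFP42 was at 0.067 to 0.387 RPKM there, a range that overlapped P10. The step from P10 was not tested.

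Several neural ectoderm genes were on the same side as the 5 factors. Of 17 genes examined 8 were tested, and 7 were called higher against blastocysts, where 73.0% of all genes were, with a median of 2.31 above the median gene. Against fibroblasts 6 were called higher, where 35.4% of all genes were, with a median of 2.59. SOX1, LHX2, SIX3, DCX and STMN2 passed the filter only through P10, so these counts were largely set by it. STMN2, a tubulin-binding protein of neurons, was at 517 and 401 RPKM at P10 and listed at 0 in all 4 control libraries. SIX3, a factor of the anterior neural plate, was at 68.7 and 70.4 RPKM at P10, against 0.023 RPKM in both blastocyst pools and at most 0.024 RPKM in fibroblasts. LHX2 was at 17.6 and 16.3 RPKM and SOX1 at 6.40 and 5.85 RPKM at P10. NEUROG2 and NEUROD1, which drive neuronal differentiation, reached at most 0.128 RPKM in any stem cell library. The part of neural cells in the levels of the 5 factors was not tested.

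The same libraries differed in other markers. Against blastocysts 6 of 8 tested trophectoderm markers were called lower, where 7.33% of all genes were, with CDX2, GATA3 and PAG2 passing the filter only through the blastocysts. The markers summed to 157 and 189 RPKM at P10 against 680 and 961 RPKM in blastocysts. The sum at P10 was mostly KRT8 and KRT18, keratins that are not confined to trophectoderm. Of 4 tested hypoblast and anterior endoderm markers 3 were called lower against blastocysts, with GATA6 and HNF4A passing the filter only through the blastocysts. APOA1, on the same list, was called higher, where 73.0% of all genes were. It was at 41.1 and 27.9 RPKM at P10, against 0.058 and 0.284 RPKM in blastocysts. Of the 9 fibroblast markers 8 were called higher against blastocysts, where 73.0% of all genes were. That count was 6 after quantile normalization, 6 with median-of-ratios scaling and 5 of 8 without the 2 most abundant features, with COL1A2 and THY1 no longer called. All 9 were called lower against fibroblasts, where 21.9% of all genes were, with FAP and THY1 passing the filter only through the fibroblasts. The part of these other cells in the differences of the 5 factors was not tested.

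Over later passages all 4 factors that could be followed stayed on. OTX2 was at 115, 91.0, 92.4 and 95.2 RPKM in line A at P13, P23, P35 and P45, and at 108, 86.3, 95.3 and 91.3 RPKM in line B at P12, P24, P35 and P46. ZIC2 was at 120, 97.3, 101 and 99.0 RPKM in line A and at 106, 105, 146 and 104 RPKM in line B at the same passages. In both genes the earliest later passage of line A stood above its other later passages. Only ZIC2 in line B at P35 passed the critical value of Dixon's outlier test within its line.

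The other pair varied more. ZIC5 was at 55.8, 24.6, 43.6 and 27.2 RPKM in line A and at 36.9, 30.9, 42.5 and 25.6 RPKM in line B. POU3F1 was at 13.0, 6.18, 12.5 and 5.76 RPKM in line A and at 7.80, 7.02, 8.79 and 4.87 RPKM in line B. Neither gene ran steadily up or down: in both lines P35 was above the passage before and after it.

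**Figure D4:**
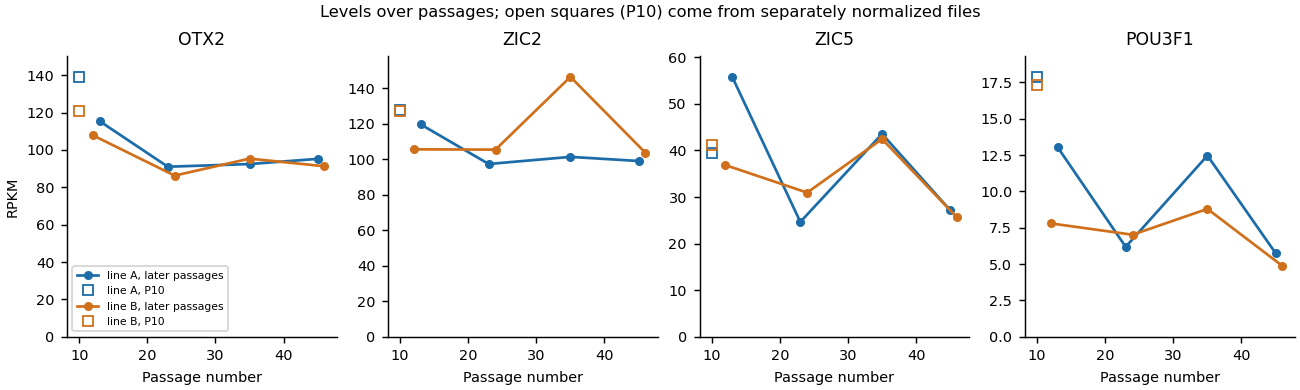
RPKM of the 4 factors against passage number for line A (blue) and line B (orange). Filled points are later passages, and open squares P10, whose files were made separately. OTX2 stays between 86.3 and 115 RPKM after P10, while ZIC5 and POU3F1 have high points at P35 in both lines.

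No change with passage was called for any of the 4. The fitted slope per 10 passages was -0.06 log2 units for OTX2 (95% interval -0.14 to 0.02), -0.01 for ZIC2 (-0.13 to 0.10), -0.14 for ZIC5 (-0.37 to 0.08) and -0.16 for POU3F1 (-0.39 to 0.07). The adjusted p lay between 0.961 and 0.979 (limma), and 0.0% of 12785 genes were called, so 0 of 4 is also the background. Without adjustment 0 of 4 factors and 494 genes had a p under 0.05. These counts rested on single libraries: without line A at P23 they were 2 of 4 (ZIC5 and POU3F1) and 1163 genes, with 2 genes but no factor called, and without line A at P35 they were 1 of 4 (POU3F1) and 693. The count of genes was 219 without line A at P13 and 233 without line B at P12. The intervals leave room for a fall of POU3F1 by 0.39 log2 units per 10 passages, and all 4 fitted slopes were negative, with that of ZIC2 turning positive without line A at P13 or without line B at P46.

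Lines A and B did not differ by a call either. The difference of line A from line B was 0.05 log2 units for OTX2 (95% interval -0.16 to 0.25), -0.13 for ZIC2 (-0.42 to 0.16), 0.09 for ZIC5 (-0.46 to 0.64) and 0.29 for POU3F1 (-0.28 to 0.86). The adjusted p lay between 0.780 and 0.925 (limma), with 0.0156% of genes called. Without adjustment 0 of 4 factors and 755 of 12785 genes had a p under 0.05. The count of genes was 2285 without line A at P23, 371 without line A at P13, 372 without line A at P35 and 355 without line B at P24, with 0 of 4 factors each time. The slopes of lines A and B were not called different in any of the 4 factors, with 0.0% of genes called in all and 83 with an unadjusted p under 0.05. That count was 462 without line B at P46, with 1 of 4 factors (ZIC2), 287 without line A at P23, and 38, 47 and 55 without line A at P13, line B at P12 and line B at P24.

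What separated the factors over these 8 libraries was their spread. The SD of log2(RPKM + 1) was 0.14 for OTX2 and 0.19 for ZIC2, against 0.17 for the median gene. It was 0.41 for ZIC5 and 0.45 for POU3F1, above 93.2% and 94.9% of genes. The highest library exceeded the lowest 1.34-fold for OTX2, 2.26-fold for ZIC5 and 2.68-fold for POU3F1, with ZIC2 between OTX2 and ZIC5. The smallest whole read numbers that the deposited values allow ranged from 199 to 573 for POU3F1, a counting error of at most 7.09%, and from 3022 to 5310 for OTX2. Counting error leaves out differences between cultures and library preparations, whose part in the spread was not tested.

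Several relatives spread further still. ZIC1 was at 16.9, 2.31, 6.88 and 2.88 RPKM in line A and at 5.87, 4.62, 5.93 and 2.70 RPKM in line B, a 7.30-fold range and an SD above that of 99.3% of genes. SALL1 was at 32.9, 13.2, 31.5 and 16.6 RPKM in line A and at 23.1, 22.2, 40.3 and 16.9 RPKM in line B. SALL4 was steadier, between 27.2 and 40.4 RPKM.

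ZIC5, POU3F1, ZIC1, ZIC4 and SALL1 shared their order of libraries in part. Each had its 3 highest values in line A at P13, line A at P35 and line B at P35, whereas OTX2, ZIC2, SALL4 and CRX did not. For ZIC1 the third place was nearly a tie, at 5.93 RPKM in line B at P35 against 5.87 RPKM in line B at P12. These 3 libraries were noticed from the values, so the pattern is a description, and 20.9% of 12785 genes, 2669 in all, were highest in the same 3. The libraries also had the 3 highest scores on the first principal component of all genes, which held 52.5% of the variance (33.2, 26.6 and 7.53, against -6.85 to -19.4 in the other 5).

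Some neural genes had the same 3 highest libraries. SIX3 was at 83.6, 6.75, 33.6 and 11.9 RPKM in line A and at 32.8, 24.7, 63.3 and 12.2 RPKM in line B. LHX2 was at 24.7, 2.19, 10.5 and 3.21 RPKM in line A and at 8.71, 8.20, 11.5 and 6.72 RPKM in line B. Of 11 neural genes with at least 1 RPKM in 2 later libraries, 5 were highest in the same 3 libraries, namely SOX1, LHX2, SIX3, DCX and STMN2. PAX6, HES5, EN1, MAP2, TUBB3 and NES were not. The third place was close for SIX3 (33.6 against 32.8 RPKM in the next library) and for STMN2 (518 against 506 RPKM). HES5, a NOTCH target, was lowest in line B at P35 and highest in line B at P12, and EN1, a factor of the midbrain, was lowest in line A at P13, at 0.832 RPKM.

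Several genes induced by low oxygen, picked after their values had been seen, ran the other way in line A. ADM was at 6.13, 67.7, 8.37 and 88.5 RPKM in line A and at 69.8, 65.3, 32.7 and 67.4 RPKM in line B. SLC2A1, a glucose transporter, was at 57.4, 185, 102 and 197 RPKM in line A and at 150, 103, 85.0 and 174 RPKM in line B. Of the 8 such genes looked at, EGLN3 was not lower there, at 38.4, 31.2, 45.4 and 37.0 RPKM in line A. Their part in the levels of ZIC5 and POU3F1 was not tested.

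**Figure D5:**
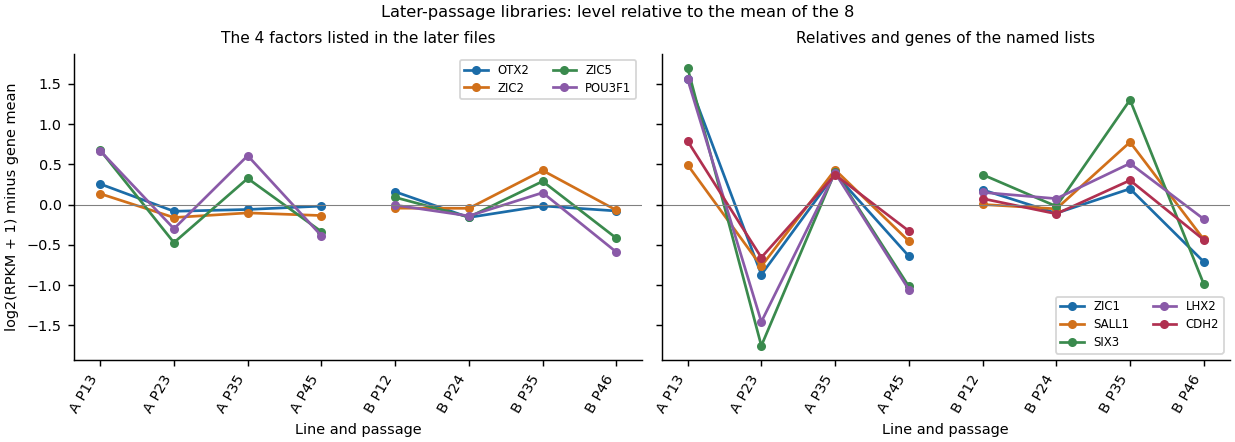
log2(RPKM + 1) minus the gene's mean over the 8 later libraries, by line and passage, for the 4 factors (left) and for relatives and list genes (right). ZIC5 and POU3F1 have high points in line A at P13 and P35 and in line B at P35, where SIX3, LHX2 and ZIC1 also lie above 0, while OTX2 stays close to its mean.

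Set beside the P10 files, the later levels of POU3F1 were lower in every library and those of the other factors were closer. POU3F1 averaged 17.6 ± 0.415 RPKM over the 2 libraries at P10 and 8.24 ± 3.04 RPKM over the 8 later ones (SD), a P10 to later ratio of 2.13. OTX2 averaged 96.8 ± 9.75 RPKM later (SD, n = 8), a ratio of 1.34, and all later values were under both P10 values. For ZIC2 the ratio was 1.16 and for ZIC5 1.12, and later and P10 values overlapped for both. These sets were made separately, so the step was not tested. Summed RPKM also differed, at 349527 and 365195 in P10 lines A and B and 475822 to 501373 later. In parts per 1000000 of the shared names, POU3F1 was at 66.4 and 61.9 in P10 lines A and B and at 15.6 to 42.1 later. On that scale OTX2 was at 516 and 432 at P10 and 272 to 372 later. ZIC2 was at 475 and 454 at P10 and 307 to 473 later, highest in line B at P35. ZIC5 was at 146.6 and 147.5 at P10 and 77.7 to 180 later.

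The proportion between neighbours on the chromosome moved as well. In the ARS-UCD2.0 gene order ZIC5 and ZIC2 lie next to each other, between CLYBL and PCCA. ZIC2 over ZIC5 was 3.24 and 3.08 in lines A and B at P10, between 2.14 and 3.95 in later line A, and between 2.86 and 4.04 in later line B. CLYBL, the gene on the other side of ZIC5, was at 2.77 and 5.57 RPKM in P10 lines A and B, against 1.97 and 1.92 RPKM in blastocysts and 5.85 and 4.13 RPKM in fibroblasts, so it did not share the contrast of its neighbours with fibroblasts. RRAGC, beside POU3F1, was at 20.3 and 23.2 RPKM at P10, against 8.12 and 11.2 RPKM in blastocysts and 37.1 and 37.6 RPKM in fibroblasts. METTL3, beside SALL2, was at 9.21 and 11.0 RPKM at P10, against 3.65 and 6.18 RPKM in blastocysts and 14.3 and 11.4 RPKM in fibroblasts.

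None of the 3 genes most like each factor was another of the 5. Likeness was measured as the root mean square difference of mean-centred log2(RPKM + 1) over 14 libraries, among 9774 names. Values were not scaled, so genes whose changes differ in size can rank far apart although high in the same libraries. Passages of a line share their culture, and files of a set their processing, so the values are descriptions. Nearest to OTX2 was IGF2BP1 (0.199), followed at a distance by DNMT3B (0.431) and JARID2 (0.636). Nearest to ZIC2 were CRMP1 (0.185), COL2A1 (0.228) and FABP7 (0.314), with ZIC5 in place 13 (0.647). Nearest to ZIC5 were DPYSL5 (0.212), MSI1 (0.215) and CA14 (0.24), with ZIC2 in place 61. Nearest to POU3F1 were NLGN3 (0.184), ASTN1 (0.201) and COL4A6 (0.211), with ZIC5 in place 930 (0.87) and ZIC2 in place 6309. Seen from ZIC5 and from ZIC2, the same distances put POU3F1 in places 143 and 199. For SALL2, over 6 libraries only, the nearest were HMGA2 (0.305), HESX1 (0.307) and CDH6 (0.336), with ZIC2 in place 14 and OTX2 in place 3128. IGF2BP1 shared with OTX2 a clear blastocyst level: it was at 130 and 91.5 RPKM in P10 lines A and B, against 27.9 and 24.2 RPKM in blastocysts.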

How the data were processed

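Total RNA from 14 cattle samples was sequenced after TruSeq library preparation, per the labels' protocols. For each library the authors deposited RPKM per gene, without read counts. The submitters' processing notes name the build UMD3.1 and edgeR without a role; aligner and annotation are not stated there. The 6 files of P10 and controls share one feature list, of which 26 unreadable names, 25 dates and 21 blank values were left out. The 8 later files share another, with 26 date names restored from other files of that set. The sets have 21008 names in common, and 18440 without a copy suffix were used across sets.

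Genes reaching 1 RPKM in 2 or more libraries of a fit were modelled as log2(RPKM + 1) with limma 3.58.1 in R 4.3.3 (empirical Bayes, mean-variance trend, two-sided, Benjamini-Hochberg over all genes, adjusted p under 0.05). The first fit holds 3 groups of 2 libraries, and the second the 8 later libraries with line and passage terms. Scripts were tested on simulated data. The pseudocount understates changes of genes near 1 RPKM, and genes listed at 0 in a reference get no fold.

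Depth in reads is unknown. Relative depth comes from low values, which are multiples of 1 read; in the later files the values of the members fell on whole numbers within a tolerance of 0.02. Nothing states that the letters A and B shared by groups pair the samples, and the main fits did not treat them as pairs. Symbols and gene order come from RefSeq (ARS-UCD2.0), whose table matched all 5 members; coordinates and sequences were not used here.

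The members, the gene lists and the tests were chosen with earlier results of these data known. Named are the 5 factors, relatives with 1 RPKM in any library, and the 3 genes most like each factor. From the primed epiblast, naive-state and neural lists, up to 4 called genes per comparison with the smallest adjusted p are named. Genes called as deposited against the direction of these lists are named too. From the cell type marker lists only some genes are named, and the mesoderm list is left out. Other genes, among them the low-oxygen genes, were named after their values were seen, and some genes of the lists are not reported here. Alternatives were other pseudocounts, filters, scalings and fits, and leaving out each library. Python 3.11.15, pandas 2.3.3 and numpy 2.4.6 read the files.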

Additional observations from a re-analysis of the deposited data

Results flagged for a closer look

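One library stood apart from the rest of its line. ZIC2 in line B at P35 was at 146 RPKM, against 104 to 106 RPKM in the other 3 later libraries of that line, and its gap to the nearest of them was 0.956 of the whole range, above Dixon's 95% critical value for 4 samples. Of 18 groups examined (the 4 factors and 5 relatives in each line) this was the only one, and chance flags about 1 in 20. In that library the deposited ZIC2 value corresponds to at least 15051 reads. ZIC5, its neighbour, was at 42.5 RPKM there, which was also its highest value in line B.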

How the results depend on the processing

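The number of factors called stayed within 1.5 times its value in all 89 alternatives, with 5 of 5 in each P10 comparison and 0 of 4 in the later ones, except 4 of 5 against blastocysts with median-of-ratios scaling and 4 of 4 where names had to be in both sets. These counts had little room to move. The later fits called few or no genes at all. At P10 the direction of ZIC2, ZIC5, SALL2 and POU3F1 was largely set by the filter. The tally is therefore a description. Of 396 further values 374 kept direction and call. The exceptions were OTX2 against blastocysts (0.34, adjusted p = 0.123, with median-of-ratios scaling), the places of ZIC2 and POU3F1 at P10 (top 1.54% and 16.8% among shared names) and 19 small uncalled differences that changed sign. Leaving out 1 later library gave line differences of -0.0150 to 0.0955 for OTX2 and -0.0890 to 0.302 for ZIC5, slopes of -0.0514 to 0.0292 for ZIC2, and differences of slopes of -0.109 to 0.0811 for OTX2, -0.260 to 0.126 for POU3F1 and -0.277 to 0.177 for ZIC5. Without line A at P13 and P35 the line differences were -0.0127 (OTX2), -0.147 (POU3F1) and -0.331 (ZIC5), the ZIC2 slope 0.0289, and the differences of slopes 0.0815 (OTX2), 0.0880 (POU3F1) and 0.157 (ZIC5); the cause was not tested.

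With the letter as a replicate block, 5 of 5 factors were called in both P10 comparisons, with 4056 genes higher and 2514 lower against fibroblasts and 8557 and 863 against blastocysts. Deviations of same-letter libraries correlated at -0.08 (P10 and blastocyst), -0.10 (P10 and fibroblast) and 0.19 (blastocyst and fibroblast). With 2 libraries a group, these values cannot settle whether same-letter samples share an origin. Leaving out 1 library removes the spread of that group, whose lone sample is assumed to vary like the others. With 2 libraries a group and no read counts, small differences near 1 RPKM cannot be resolved.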
